A study of Homo sapiens with 4 samples.

Results

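The miR-34 family was followed through 3 of the 856 features of a human microRNA chip: miR-34a (MIMAT0000255), miR-34b* (MIMAT0000685, the strand now called miR-34b-5p) and miR-34c-5p (MIMAT0000686). The members were chosen as a family by these miRBase accessions. The choice uses no threshold on intensity, but it was made with earlier results of these data known. The chip had been hybridized with total RNA of 4 established lines grown from human oesophageal squamous cell carcinomas (KYSE-960, KYSE-890, KYSE-520 and KYSE-450), with 1 array per line. All 4 were grown in the same serum-containing medium with no treatment named, and normal oesophagus was not part of the design. Since no line had a second array, the spread between replicates is unknown and no difference between lines was tested.

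MicroRNAs are short RNAs that guide Argonaute proteins to messenger RNAs, chiefly by pairing through a seed near the 5′ end, and thereby lower the output of those messages. The miR-34 family is known for restraining growth. Its targets include messages for cell cycle and survival proteins such as CDK6, MET and BCL2, and methylation of the miR-34 promoters is known in carcinomas. Promoter methylation was not measured here. miR-34a has a gene of its own, whereas miR-34b and miR-34c are cut from a common primary transcript.

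The family sequences below are shown because the 3 features probe near relatives, and a probe for one could in principle bind another. They are RefSeq entries on GRCh38.p14, written 5′ to 3′. Of the 3 members, 2 matched a mature entry and miR-34c-5p did not. In the mature sequences capitals mark the seed, bases 2 to 8.
miR-34a-5p: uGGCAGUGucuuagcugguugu
miR-34b-5p: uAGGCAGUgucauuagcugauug
miR-449a: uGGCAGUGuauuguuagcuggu
miR-449b-5p: aGGCAGUGuauuguuagcuggc
miR-449c-5p: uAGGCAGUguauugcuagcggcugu

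The seed of miR-34a-5p, GGCAGUG, was found at the same position in miR-449a and miR-449b-5p, members of a related family known from multiciliated epithelium. Of the 2370 mature names in the table, which has no complete coverage, these 3 (0.127%) carried that seed. The 7 bases occurred anywhere in 16 of the 2370 names (0.675%). The member miR-34c-5p, known to share the seed of miR-34a, had no mature entry and is in neither count. miR-34b-5p carries the same 7 bases 1 position further from its 5′ end, as does miR-449c-5p, so that their seed reads AGGCAGU. Aligned over their length, miR-34a-5p and miR-34b-5p had 19 identical bases, 86.4% of the shorter sequence, and 2 mismatches. The remaining bases were left unpaired by the alignment. The sequences of the chip's own probes and the extent of cross-hybridization between them were not analysed here.

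The 3 hairpins are shown with the same 7 bases, GGCAGUG, in capitals. The motif occurred once in each on the strand of the RNA, and in 34 of 1562 human hairpins in the table (2.18%).
MIR34A: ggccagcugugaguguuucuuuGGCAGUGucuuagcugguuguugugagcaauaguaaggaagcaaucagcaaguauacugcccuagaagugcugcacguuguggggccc
MIR34B: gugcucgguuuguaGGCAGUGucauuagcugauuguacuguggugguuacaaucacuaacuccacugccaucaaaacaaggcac
MIR34C: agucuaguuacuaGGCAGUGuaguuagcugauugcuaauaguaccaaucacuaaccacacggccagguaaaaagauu

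The MIR34A hairpin lies at chr1:9151668-9151777 on the minus strand. The MIR34B hairpin lies at chr11:111512938-111513021 and the MIR34C hairpin at chr11:111513439-111513515, both on the plus strand and separated by 417 bases.

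None of the 3 miR-34 features was above background in any of the 4 lines, so 0 of their 12 intensities counted as signal. A feature was called above background when its deposited intensity exceeded the median of all features on that array by more than 3 times the SD of the dim side, the spread of the features below the median. The threshold was 146 scanner units for KYSE-520, 135 for KYSE-450, 130 for KYSE-960 and 128 for KYSE-890, which is between 1.59 and 1.71 times the array median. Over all features, the KYSE-960 array had 11.0% above background, the KYSE-890 array 11.1%, the KYSE-450 array 13.8% and the KYSE-520 array 17.5%. A majority, 688 of 856 (80.4%), was above background in no line, so a set of 3 features at background is not in itself unusual on this chip. The arrays did record bright features, with 75 above background in all 4 lines. An intensity at background does not show that the RNA was absent, only that it was not detectable over the array's own background.

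**Figure D1:**
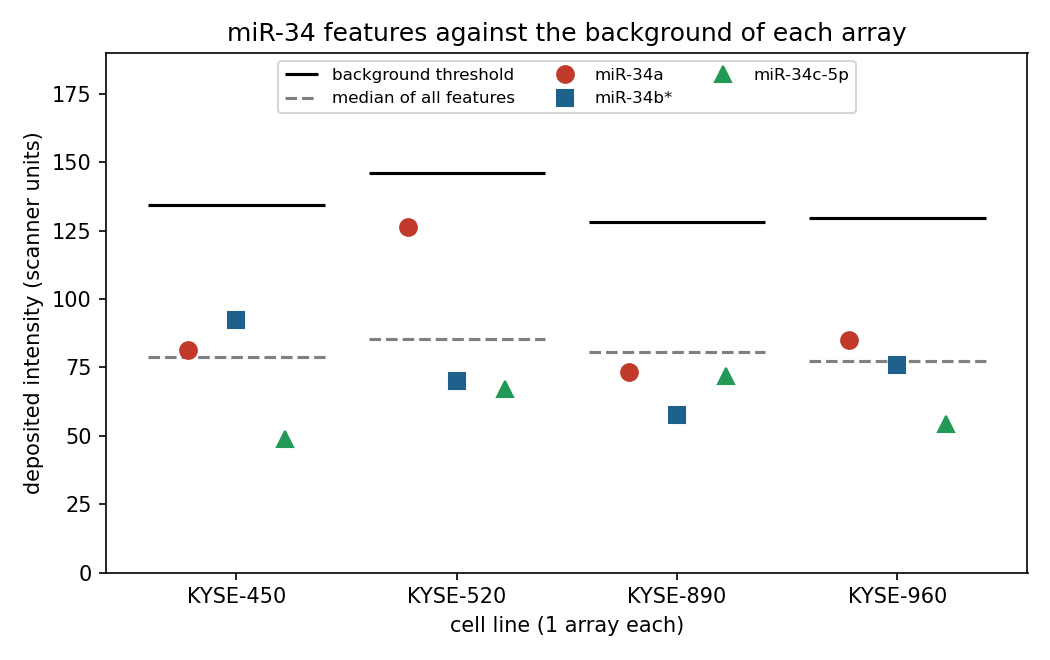
Deposited intensity (scanner units, linear axis) of miR-34a, miR-34b* and miR-34c-5p in each line, 1 array per line, with the median of all 856 features (dashed) and the background threshold (solid) of that array. All 12 points lie under the threshold, and the nearest to it is miR-34a in KYSE-520, at 126.5 under a threshold of 146.

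miR-34a, the member with its own gene on chromosome 1, gave 126.5 scanner units in KYSE-520, with KYSE-960 at 85, KYSE-450 at 81.5 and KYSE-890 at 73.5. KYSE-520 was the high array, and the other three lay within 11.5 units of each other. The value in KYSE-520 came nearest to detection, 19.7 units under the threshold and 2.03 dim-side SDs above the array median. It ranked 174 of 856 from the brightest. Counting miR-34a itself, 24 of the 706 features not above background on that array (3.40%) were at least as bright. With the threshold at 2 dim-side SDs over the median, or 126 units, it would have counted as above background, with 177 features passing on that array. No other value of the family would have done so. In the other lines miR-34a lay between -0.44 and 0.43 dim-side SDs from the array median, where it ranked 569 (KYSE-890), 365 (KYSE-450) and 298 (KYSE-960). KYSE-520 was also the array with the most features above background, 150, against 94 in KYSE-960, 95 in KYSE-890 and 118 in KYSE-450. The part of that brightness in the miR-34a value was not tested. Quantile normalization makes the distributions of the arrays identical. After it, miR-34a stood at 108 in KYSE-520, with KYSE-960 at 89.5, KYSE-450 at 84.1 and KYSE-890 at 71.5, the same order of lines. That order did not hold under every scaling. An alternative set equal the medians of the 184 shared features, those at or above the array median in every line. With values under the array median raised to it, miR-34a in KYSE-520 then lay under KYSE-960 and KYSE-890 and over KYSE-450.

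miR-34b*, the 5′ strand of the miR-34b hairpin, gave 92.5 scanner units in KYSE-450, 76 in KYSE-960, 70 in KYSE-520 and 57.5 in KYSE-890. It exceeded the array median in KYSE-450 alone, by 13.75 units or 0.74 dim-side SDs. In KYSE-890 it was among the dimmest features, at rank 790 of 856, -1.44 dim-side SDs from the median.

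miR-34c-5p, from the neighbouring hairpin of the same primary transcript, gave 72 scanner units in KYSE-890, 67 in KYSE-520, 54.5 in KYSE-960 and 49 in KYSE-450. It lay below the median of all features in every line, as did 143 of the 856 features (16.7%). Its ranks ran from 601 in KYSE-890 to 815 in KYSE-450.

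**Figure D2:**
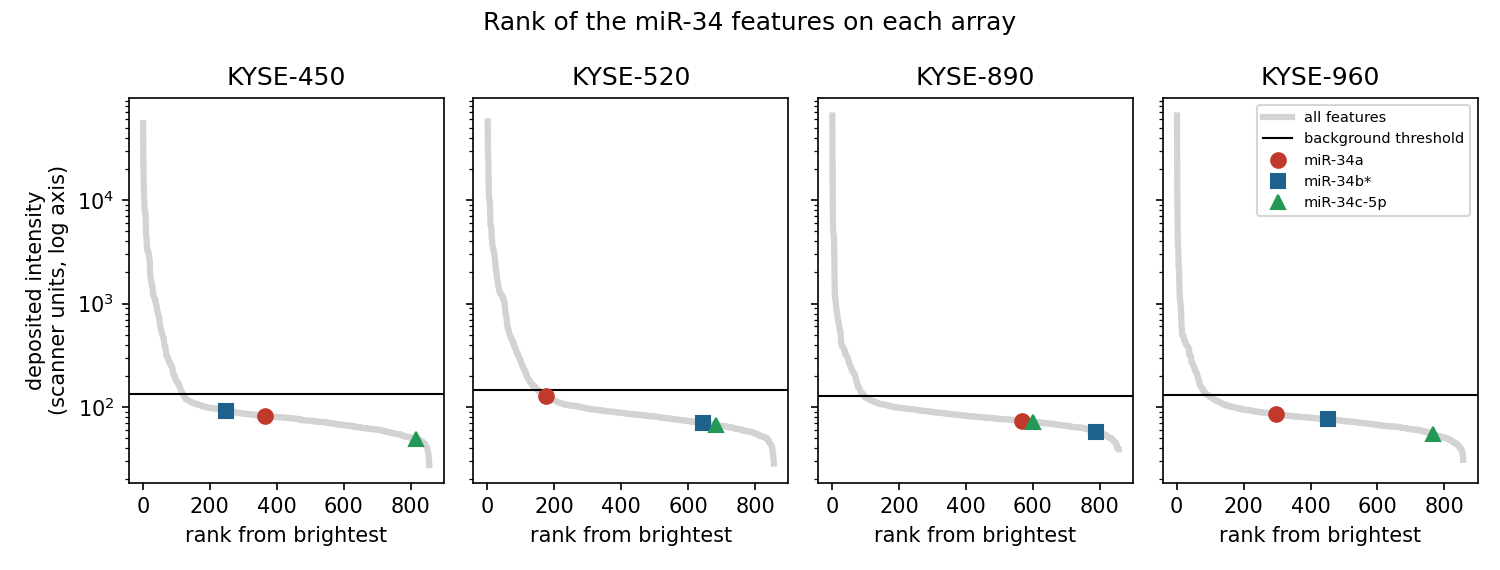
Deposited intensity (scanner units, log axis) of all 856 features on each array, sorted from the brightest, with the 3 miR-34 features marked at their rank and the background threshold as a horizontal line. The members sit among the features at background, between rank 174 (miR-34a in KYSE-520) and rank 815 (miR-34c-5p in KYSE-450).

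The members did not share an order of lines. From high to low, miR-34a ran KYSE-520, KYSE-960, KYSE-450, KYSE-890. miR-34b* ran KYSE-450, KYSE-960, KYSE-520, KYSE-890, and miR-34c-5p ran KYSE-890, KYSE-520, KYSE-960, KYSE-450. KYSE-890 was thus the dimmest line for miR-34b* and the brightest for miR-34c-5p, its partner on the common transcript. Since every value was at background and no line had a second array, no neighbours in these orders can be called different.

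The span of each member over the lines was set beside the spans of the 688 features that were above background in no line, which include the 3 members. These features spanned a median of 31 units between their highest and lowest line, with 15.5 and 50.5 units at the 10th and 90th percentiles. miR-34a spanned 53 units, and 55 of the 688 features (7.99%) spanned at least as much. miR-34b* spanned 35 units, equalled or passed by 269 features (39.1%), and miR-34c-5p spanned 23 units, equalled or passed by 496 (72.1%). As a ratio of highest to lowest line, the span of miR-34a was matched or passed by 185 of the 688 features (26.9%). These spans and ratios are of deposited values, unscaled between arrays. After quantile normalization the ratio was 1.51 for miR-34a, 1.75 for miR-34b* and 1.37 for miR-34c-5p. The widest of the 3 was then miR-34b*, not miR-34a. Across the 688 features the arrays were only weakly alike, with Spearman's rho between 0.20 and 0.31 for the 6 pairs of lines, a description over features that share their arrays.

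**Figure D3:**
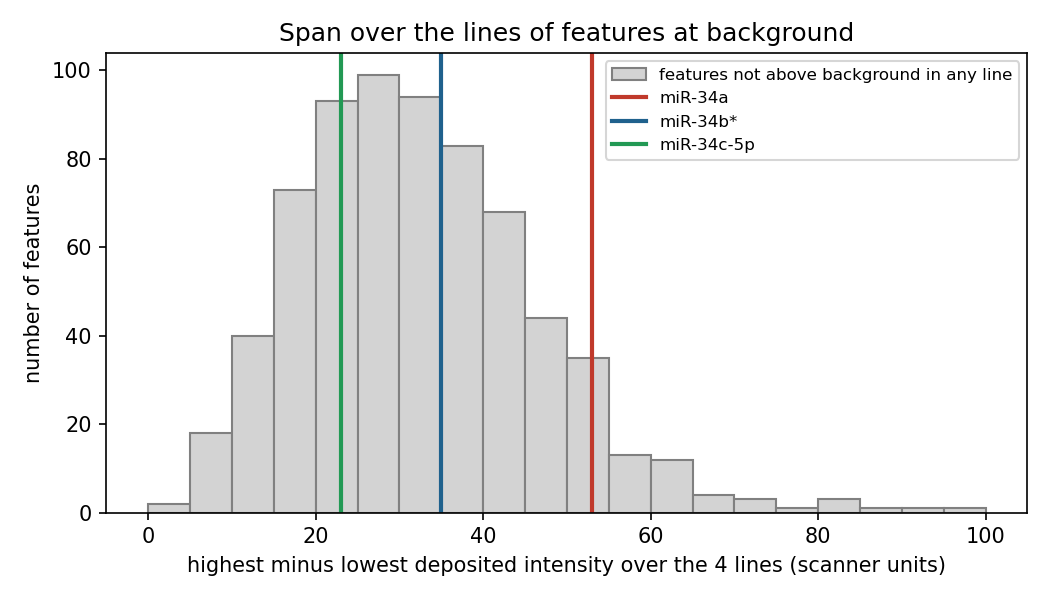
Number of features (vertical axis) by the difference between their highest and lowest deposited intensity over the 4 lines (scanner units), for the 688 features above background in no line. Vertical lines mark miR-34c-5p at 23 units, miR-34b* at 35 and miR-34a at 53. On these values, unscaled between arrays, miR-34a lies in the upper tail, where 55 of the 688 features span at least as much.

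Between pairs of lines, 0 of the 18 differences (3 members in 6 pairs) reached 2-fold in the quantile-normalized intensities, with values under the array median raised to it. No fold is given for any of them, since neither line was above background. Over all 856 features, the share past 2-fold in either direction was 2.34% for KYSE-450 over KYSE-520 and 4.21% for KYSE-890 over KYSE-960. It came to 9.00% for KYSE-450 over KYSE-890, 9.35% for KYSE-450 over KYSE-960, 9.93% for KYSE-520 over KYSE-890 and 10.2% for KYSE-520 over KYSE-960. With these shares, 0 of 3 members past 2-fold in a pair is near what most features on the chip did. The count was largely fixed in advance, because all members were at background. On the deposited values the highest threshold was 146 (KYSE-520) and the lowest array median 77.5 (KYSE-960). No feature at background in both lines could therefore reach 2-fold over that floor. Raising dim values to the median also pulls such differences toward 0, so this count cannot show that the lines hold equal amounts of miR-34.

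Features with a pattern like that of a miR-34 member were to be named only for members above background in at least 2 lines, and 0 members qualified. The 3′ strands of the miR-34 hairpins and the miR-449 family were listed by name and could not be paired with the chip's accessions from the sources used here, so their values are not given.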

How the data were processed

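RNA (500 ng a line) was labelled with Hy5, hybridized for 16 h at 32 °C and scanned, per the labels' protocols. The authors deposited 1 intensity per feature and array on a linear scale. How spots were averaged, subtracted or scaled is not stated in the labels. All values were multiples of 0.5 with none at 0, and array totals differed. Quantile normalization used limma 3.58.1 (R 4.3.3), values under the array median were raised to it, and log2 differences were called at 2-fold. Background thresholds used the unscaled values. The background threshold, the floor and the 2-fold rule were checked on simulated arrays without quantile normalization, which is no test of the lines. Alternatives covered scaling, floor, an added constant and the threshold.

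The table holds accessions only. The 3 member names came with the choice of members. The cell type markers and the other microRNA lists could not be matched, so the labelled cell type was not checked. Members, lists and rules were chosen with earlier results of these data known. All 3 members are named, with no selection by value.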

Additional observations from a re-analysis of the deposited data

How the results depend on the processing

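All 3 features stayed at background in every line with the threshold at 5 dim-side SDs. At 2, miR-34b* and miR-34c-5p still passed in 0 lines, while miR-34a passed in 1, KYSE-520, at 126.5 against a threshold of 126. Of 8 alternatives for the pairwise differences, 7 left 0 of 18 at 2-fold. Where the background threshold served as the floor, every member value was raised to it, so that count was fixed in advance. A median floor on the deposited values left features at background in both lines no room for 2-fold. In the quantile-normalized values it also pulled differences of dim features toward 0. These counts are therefore weak evidence on how far the result depends on processing. With the array median subtracted (negative results set to 0) and 16 added, 3 reached 2-fold, all of miR-34a with KYSE-520 higher. Subtraction enlarges ratios of values near the median. With the medians of the shared features set equal, miR-34a in KYSE-520 instead lay under KYSE-960 and KYSE-890. The same scaling had set the median floors of those lines above that of KYSE-520. Over all features, the deposited values gave 36 at 2-fold for KYSE-450 over KYSE-520 and 12 for KYSE-890 over KYSE-960. Their quantile-normalized counts were 20 and 36, and the second was 22 with the background threshold as floor. The cause was not tested. No feature of like pattern could be sought under any scaling, since no member qualified. No spread within a line could be estimated because no line had a second array. Dim signal and single arrays limit precision.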
